A study of Mus musculus with 50 samples.

Results

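Mrc1 and Lyve1 were examined as 2 of the 1000 RNA targets counted in situ in mouse liver sections with the CosMx Spatial Molecular Imager, which reads single transcripts in intact tissue. Both genes were chosen by name, and their counts were followed through endothelial cells and macrophages, across the liver lobule and between genotypes. The study asked what loss of the histone chaperone HIRA in hepatocytes does to the ageing liver. Control livers came from wild-type C57BL/6 mice and HIRA KO livers from HIRA fl/fl mice. Both groups received AAV8 Tbg-Cre by retro-orbital injection at 6 months of age and were collected 12 months later, at 18 months. The TBG promoter is active in hepatocytes, so Cre was directed to hepatocytes and not to the endothelial cells and macrophages in which Mrc1 and Lyve1 were followed, and Hira itself was not among the targets.

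The Mrc1 protein, CD206, is the mannose receptor, an endocytic C-type lectin that takes up glycoproteins with exposed mannose, N-acetylglucosamine or fucose and fragments of denatured collagen. Lyve1 is a hyaluronan-binding receptor first described on lymphatic vessels and also carried by the sinusoidal endothelium of the liver and by some tissue macrophages. Liver sinusoidal endothelial cells and Kupffer cells, the resident macrophages of the sinusoids, are the main scavenger cells of the blood, and their receptors clear waste macromolecules from the portal inflow. In RefSeq's annotation of build GRCm38.p6, Mrc1 lies on chromosome 2 from 14229414 to 14332023 and Lyve1 on chromosome 7 from 110850607 to 110862953.

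The 50 fields of view lay on 1 slide in 6 tissue areas of 8 or 9 fields, 3 control and 3 HIRA KO, and each area was taken as 1 replicate. The methods describe biological replicates with several fields each, but the labels name no mouse, so p-values measure only the spread between these areas. The control areas lay on 1 side of the slide and the HIRA KO areas on the other, so genotype and side of the slide cannot be told apart. After the study's filters 49665 of 52132 segmented cells remained, with 718991 to 1542205 gene counts per area and medians of 88 to 147 counts per cell. Gene counts per 1000 square pixels of cell area ran from 6.17 to 8.62 in the control areas and from 10.3 to 11.2 in the HIRA KO areas. Levels are therefore given as counts-per-million values (CPM), over all gene counts of the same cells. Over all segmented cells Mrc1 summed to 8955 counts, rank 135 of the 1000 targets, and Lyve1 to 5176, rank 499. The highest of the 10 negative probes, which match no mouse transcript, summed to 3946 and the median negative probe to 3142.5. Lyve1 was thus a weak signal over much of the tissue, and levels of Mrc1 and Lyve1 were not compared with each other because probes differ in efficiency.

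Cell classes were made from clusters of the other targets, with Mrc1 and Lyve1 left out of both the clustering and the marker lists. The 6023 endothelial-like cells fell into 5271 sinusoidal cells, led by Kdr, Eng and Bmp2, and 752 large-vessel cells, led by Fabp4, Vwf and Pecam1. Kupffer-like cells numbered 2789 and were led by Cd5l, C1qb and C1qa. A further 3092 monocyte/dendritic-like cells were led by Gpnmb and the MHC class II genes H2-Aa and H2-Ab1. The clusters were named from marker lists, so sums of the same lists describe the classes and do not test the labels. The 15 endothelial markers summed to 34710 to 44461 CPM in endothelial-like cells against 11446 to 13685 CPM in Kupffer-like cells. The 9 Kupffer markers summed to 48361 to 63557 CPM in Kupffer-like cells against 7756 to 8403 CPM in endothelial-like cells. None of these markers was at 0 in the class it does not mark.

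Mrc1 marked the sinusoidal lining most strongly, with Kupffer-like cells next. In sinusoidal cells Mrc1 reached 3806, 3974 and 4562 CPM in control areas 1 to 3 and 2628, 2951 and 4322 CPM in HIRA KO areas 1 to 3. HIRA KO areas 1 and 2 lay below every control area, and HIRA KO area 3 lay between control areas 2 and 3. In Kupffer-like cells Mrc1 was at 2501, 2523 and 2866 CPM in the control areas and 2420, 2312 and 2677 CPM in the HIRA KO areas. These areas overlapped and spanned a far narrower range than the sinusoidal ones. Relative to the mean negative probe in the same cells, Mrc1 was 10.1 times as high in sinusoidal cells and 7.44 times as high in Kupffer-like cells, as means over the 6 areas.

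Large-vessel endothelial-like cells held less Mrc1, at 1131 to 1830 CPM. Within each area sinusoidal cells exceeded large-vessel cells by 1.24 ± 0.27 on the log2(CPM + 10) scale (SD, n = 6 areas), in 6 of 6 areas, with an exact sign-flip permutation p of 0.031, the smallest that 6 areas allow. Endothelial-like cells together exceeded Kupffer-like cells in Mrc1 by 0.41 ± 0.23 on the same scale, again in 6 of 6 areas (exact two-sided p = 0.031). That order rests on the scaling. Kupffer-like cells held more counts each, and as mean counts per cell the same difference was -0.22 (exact p = 0.09375), while classes cut from marker counts alone gave 0.13 (exact p = 0.125).

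Below Kupffer-like cells, Mrc1 stepped down through monocyte/dendritic-like cells by 0.61 ± 0.31 (SD) on the log2(CPM + 10) scale in 6 of 6 areas. Monocyte/dendritic-like and large-vessel cells, neighbours in this order, differed by 0.11 ± 0.31, with 4 of 6 areas in that direction (exact p = 0.40625). Stellate-like, T/NK-like, hepatocyte-like and cholangiocyte-like cells followed. The order was read from the same values, and over 14 neighbouring pairs of both genes the lowest Benjamini-Hochberg adjusted exact p was 0.0875. Hepatocyte-like cells, which should lack the mannose receptor, held 743 to 996 CPM, 1.89 times the negative probe. They nevertheless carried 27.6% of all Mrc1 counts because they made up 33.6% of cells, against 22.6% of Mrc1 counts in the 12.1% of cells that were endothelial-like.

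As a mean over the 6 areas Lyve1 was highest in sinusoidal cells too, but stood much less clear of the other classes. Large-vessel cells were higher in control area 1 (1032 CPM, 12 counts) and HIRA KO area 3 (1079 CPM, 9 counts). Monocyte/dendritic-like cells (960 CPM, 15 counts) and T/NK-like cells (827 CPM, 11 counts) were higher in control area 2. Sinusoidal Lyve1 was 1004, 756 and 815 CPM in control areas 1 to 3 and 2029, 1432 and 720 CPM in HIRA KO areas 1 to 3. HIRA KO areas 1 and 2 were above all control areas, whereas HIRA KO area 3 was the lowest of the 6. Kupffer-like cells held Lyve1 at 639, 440 and 594 CPM in the control areas and at 708, 720 and 542 CPM in the HIRA KO areas, 1.77 times the negative probe on average. The HIRA KO values began inside the control range and ended above it. Hepatocyte-like cells, which should lack this receptor, held 583 to 899 CPM of Lyve1, 1.59 times the negative probe.

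Endothelial-like cells exceeded Kupffer-like cells in Lyve1 by 0.75 ± 0.35 (SD, n = 6) on the log2(CPM + 10) scale, in 6 of 6 areas (exact sign-flip p = 0.031). As mean counts per cell the difference was 0.12 (exact p = 0.59375). Sinusoidal and large-vessel cells differed by 0.45 ± 0.77 in Lyve1, with 4 of 6 areas higher in sinusoidal cells (exact p = 0.25). Large-vessel cells gave only 3 to 14 Lyve1 counts per area, and control area 2, with 3 counts at 261 CPM, had an exact 95% Poisson interval of 53.9 to 764 CPM that covers counting error only. No neighbouring classes in the Lyve1 order, from sinusoidal through large-vessel, hepatocyte-like, stellate-like, Kupffer-like, cholangiocyte-like and monocyte/dendritic-like to T/NK-like cells, had an unadjusted exact p below 0.25.

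**Figure D1:**
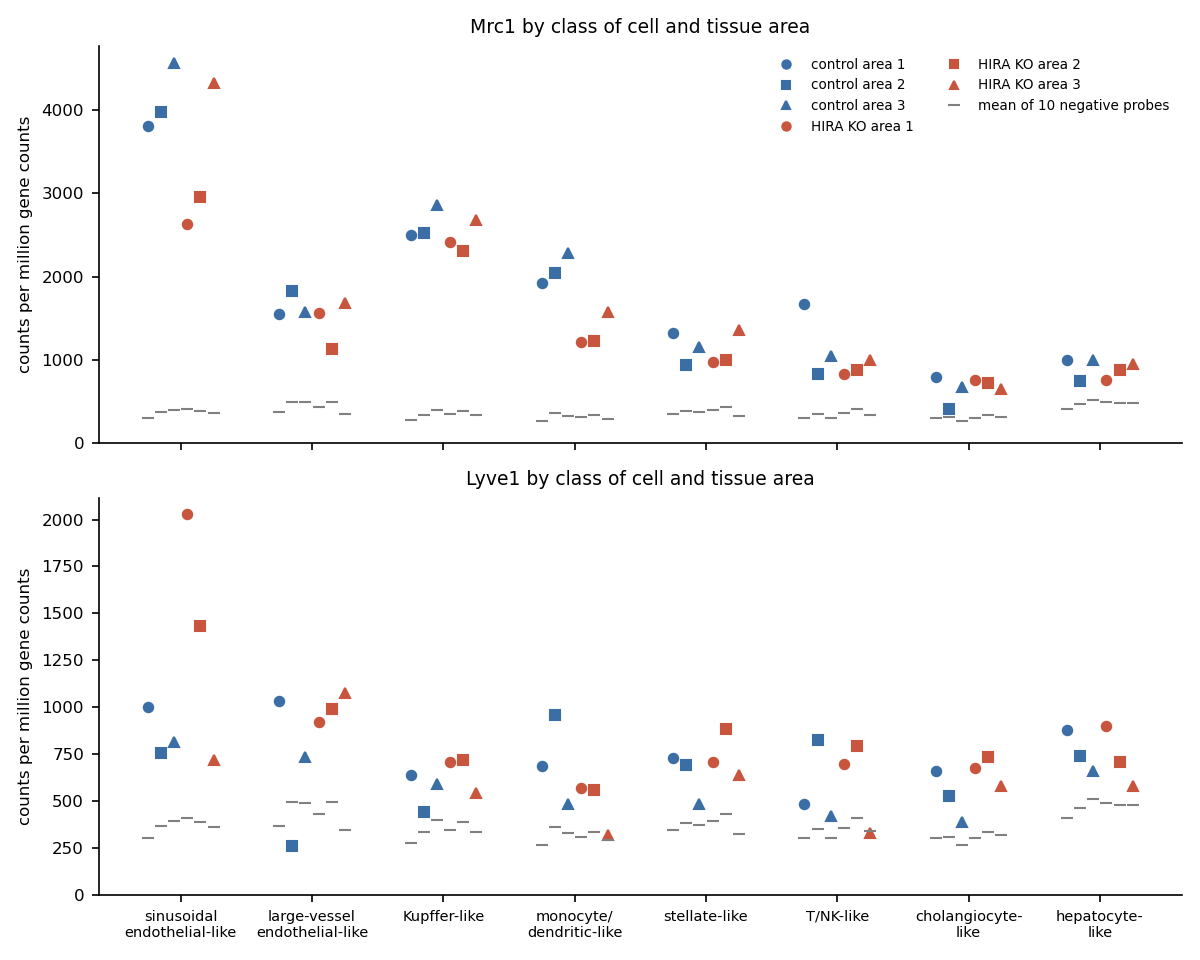
Mrc1 (top) and Lyve1 (bottom) in CPM for 8 classes of cell, with 1 point per tissue area (3 control areas in blue, 3 HIRA KO areas in red) and a grey dash for the mean of the 10 negative probes in the same cells. Within each area sinusoidal Mrc1, at 2628 to 4562 CPM, stands above Kupffer-like Mrc1, at 2312 to 2866 CPM, though the ranges overlap between areas, while Lyve1 rises clear of the rest in sinusoidal cells of HIRA KO areas 1 and 2.

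The targets whose levels over 11 cell classes ran most like Mrc1, as Pearson's r of mean log2(CPM + 10), were Msr1 (0.98), Cdh5 (0.97), Cd47 (0.96), Mertk (0.94) and Cxcl16 (0.94). Msr1 encodes a macrophage scavenger receptor, Cdh5 the cadherin of endothelial junctions, Cd47 a widely expressed signal against engulfment, Mertk a receptor for the uptake of dying cells and Cxcl16 a membrane-bound scavenger receptor and chemokine. Those most like Lyve1 were Kit (0.98), Ahr (0.97), Dpp4 (0.97), Rac1 (0.95) and Notch1 (0.95). Kit is a receptor tyrosine kinase and Ahr a ligand-activated transcription factor, Dpp4 is a cell surface peptidase, Rac1 is a small GTPase and Notch1 is a receptor for ligands on adjacent cells. Lyve1 itself ranked 11 of 747 targets for Mrc1 (r = 0.88) and Mrc1 ranked 86 of 747 for Lyve1. Among the 11 classes were the 126 neutrophil-like cells, as few as 5 in an area. Their Mrc1 ran from 0 to 1878 CPM and their Lyve1 from 0 to 1542 CPM over the areas. Areas at 0 set that sparse class low on the log scale, and r without it was not computed. The classes share the slide and the same 6 areas, so these values are a description.

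Between genotypes, Lyve1 in sinusoidal cells stood above every control area in HIRA KO areas 1 and 2 and was lowest of all in HIRA KO area 3, and Mrc1 did not pass the test in the 5 classes tested (endothelial-like cells as a whole, sinusoidal, Kupffer-like, monocyte/dendritic-like and hepatocyte-like cells) or over all cells. With counts summed per area and edgeR's quasi-likelihood test over the whole panel, sinusoidal Lyve1 was 1.64-fold higher in HIRA KO, a log2 fold change of 0.71 with a standard error of 0.18 and an edgeR adjusted p of 0.0365. It was 1 of 5 targets called among 998 tested in sinusoidal cells, or 0.501%, all 5 higher in HIRA KO. The other called targets were Dpt, an extracellular matrix protein gene, Ttr, the gene of the plasma carrier transthyretin, Fgg, the fibrinogen gamma chain, and Vtn, the plasma adhesion protein vitronectin. Their log2 fold changes were 0.78, 1.36, 0.66 and 0.65, and all were named after their values were seen.

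The Lyve1 call depended on which areas entered the fit. Without HIRA KO area 3 the sinusoidal log2 fold change was 1.02 with an edgeR adjusted p of 0.000464. Leaving out any 1 of the other 5 areas ended the call, with log2 fold changes down to 0.41 and edgeR adjusted p up to 0.779. DESeq2 gave a log2 fold change of 0.72 and an adjusted p of 0.997 on the same counts. In all endothelial-like cells together, where Lyve1 was 1007, 698 and 806 CPM in control areas and 1850, 1379 and 752 CPM in HIRA KO areas, the log2 fold change was 0.69 with a standard error of 0.21 and an edgeR adjusted p of 0.283. No target was called there (0% of 998 tested), 62 had an unadjusted edgeR p under 0.05, DESeq2 called 1, and Lyve1 ranked 7 by p. With slide row as a block, endothelial-like Lyve1 passed at 0.67 with an edgeR adjusted p of 0.00930, and it also passed without control area 1 (0.84, edgeR adjusted p = 0.00976) or without HIRA KO area 3 (0.94, edgeR adjusted p = 0.00249).

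Markers of hepatocytes moved with genotype in the same cells. In sinusoidal cells 11 hepatocyte markers summed to 29819 to 32195 CPM in the control areas and 42025 to 60371 CPM in the HIRA KO areas, with no overlap (exact permutation p = 0.1, the smallest that 3 areas against 3 allow). Of the 11 markers 9 had a higher mean in HIRA KO and none was at 0. Ttr, Fgg and Vtn, called above, are among these hepatocyte markers. The sum was highest in HIRA KO area 3, the area with the lowest sinusoidal Lyve1, and hepatocyte-like Lyve1 itself differed between genotypes by a log2 fold change of 0.05 (edgeR adjusted p = 0.941). The 16 stellate markers summed to 13007, 12564 and 12482 CPM in control areas 1 to 3 and to 13972, 15456 and 12360 CPM in HIRA KO areas 1 to 3 of the sinusoidal cells. HIRA KO areas 1 and 2 lay above all control areas and HIRA KO area 3 was the lowest of the 6, as for Lyve1, with 11 of the 16 markers higher on average in HIRA KO, none at 0 and an exact permutation p of 0.4. Dpt, called above, is a stromal gene and 1 of these markers. Stellate-like cells held Lyve1 at 730, 693 and 484 CPM in control areas 1 to 3 and 710, 882 and 640 CPM in HIRA KO areas 1 to 3. Endothelial and Kupffer marker sums in sinusoidal cells overlapped between genotypes. The part of hepatocyte and stellate transcripts in the sinusoidal Lyve1 difference was not tested.

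Single fields of view showed where the high Lyve1 lay. In HIRA KO area 1 sinusoidal Lyve1 ran from 611 CPM in the lowest of 8 fields to a median of 1972 and a highest value of 3102 CPM. In HIRA KO area 2 its 9 fields ran from 734 through a median of 1313 to 2150 CPM. The medians of the other 4 areas lay between 742 and 888 CPM, so the high level was spread over fields and not held by a single one. Mrc1 in the same fields had medians of 2605 CPM in HIRA KO area 1 and 3022 CPM in HIRA KO area 2, against 3389 to 4498 CPM in the other areas. The areas with the most sinusoidal Lyve1 were those with the least Mrc1. Across fields within an area, however, Pearson's r of Mrc1 with Lyve1 ran from -0.48 to 0.57 over 8 or 9 fields, with a positive sign in 5 of 6 areas, and is given as a description because the fields share a section.

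**Figure D2:**
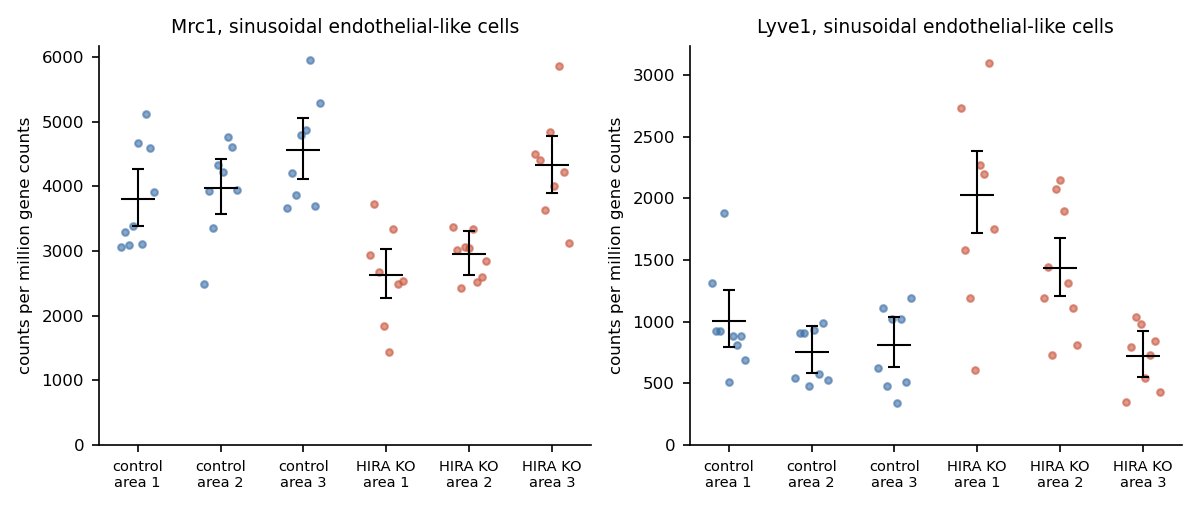
Mrc1 (left) and Lyve1 (right) in sinusoidal endothelial-like cells, in CPM, with 1 point per field of view, a black dash for the whole tissue area and bars for its exact 95% Poisson interval, which covers counting error only. Lyve1 medians of 1972 and 1313 CPM set HIRA KO areas 1 and 2 apart from the other 4 areas, whose medians are 742 to 888 CPM.

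Mrc1 in endothelial-like cells had a log2 fold change of -0.25 with a standard error of 0.24 and an edgeR adjusted p of 0.887, and its 95% interval ran from -0.72 to 0.21. In sinusoidal cells alone it was -0.27 with an edgeR adjusted p of 0.862. In Kupffer-like cells the Mrc1 log2 fold change was -0.01 with a standard error of 0.20 (edgeR adjusted p = 0.998), with a 95% interval of -0.40 to 0.39. Kupffer-like Lyve1 differed by 0.27 with a standard error of 0.22 (edgeR adjusted p = 0.893). A small Kupffer-like cluster led by Cxcl13 held 176 of its 205 cells in HIRA KO area 3. Without it, Kupffer-like Mrc1 was 2288 to 2491 CPM in HIRA KO areas and 2525 to 2844 CPM in control areas. The log2 fold change was then -0.09 (edgeR adjusted p = 0.982). In that fit, as with the cluster kept, 5 of 995 targets were called, or 0.503%.

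Mrc1 was lower in the HIRA KO areas among monocyte/dendritic-like cells by the values, without passing the test. It was 1925, 2047 and 2279 CPM in the control areas and 1210, 1221 and 1570 CPM in the HIRA KO areas. Control area 2 held only 97 such cells. The log2 fold change was -0.61 with a standard error of 0.20, an unadjusted edgeR p of 0.00562 and an edgeR adjusted p of 0.80. Only 1 of 997 targets was called in that class, or 0.1%. In these cells the 11 hepatocyte markers summed to 25008 to 29940 CPM in control and 30117 to 50855 CPM in HIRA KO areas (8 higher on average, exact p = 0.1). The 9 Kupffer markers, Cd163 among them, overlapped at 21560 to 27208 and 18751 to 24477 CPM (2 higher, exact p = 0.2). The 15 endothelial markers overlapped at 10931 to 12279 and 10237 to 11843 CPM (6 higher, exact p = 0.8). The 16 stellate markers overlapped at 16954 to 23857 and 20390 to 21867 CPM (8 higher). None of these markers was at 0. Gpnmb, a leading gene of the class, differed by 1.80 on the log2 scale (edgeR adjusted p = 0.928), and the part of class make-up in the Mrc1 difference was not tested. Lyve1 in the same cells differed by -0.43 (edgeR adjusted p = 0.928). Over all cells, where fewer cells of a type and less RNA per cell cannot be told apart, Mrc1 differed by -0.17 (edgeR adjusted p = 0.848) and Lyve1 by 0.12 (edgeR adjusted p = 0.865).

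The other scavenger and endocytic receptors of the panel, 21 in number, gave 0 higher and 0 lower calls in sinusoidal cells, with a median log2 fold change of -0.04 against -0.01 over all 998 targets. Of these receptors 2 had an unadjusted edgeR p under 0.05, beside 74 of all 998 targets (7.41%), and DESeq2 called 0. Cd36, the fatty acid translocase and class B scavenger receptor, was at 1890, 1833 and 1805 CPM in the control areas and 2955, 2547 and 2744 CPM in the HIRA KO areas. Its log2 fold change was 0.61 with an edgeR adjusted p of 0.284, or 0.00253 with slide row as a block. Mertk, the receptor for dying cells, ran at 873, 1122 and 1228 CPM in control areas and 763, 865 and 697 CPM in HIRA KO areas. It differed by -0.43 on the log2 scale (edgeR adjusted p = 0.540).

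In Kupffer-like cells 1 of the 21 receptors fell and none rose, beside 4 of 995 targets that rose (0.402%) and 1 that fell (0.101%) in all. The one that fell was Cd163, the receptor that clears haptoglobin-haemoglobin complexes, which was also a leading gene of the Kupffer-like cluster. Cd163 was at 2501, 1998 and 2493 CPM in the control areas and 845, 796 and 644 CPM in the HIRA KO areas. All control areas lay far above all HIRA KO areas, and the log2 fold change was -1.57 with a standard error of 0.20 and an edgeR adjusted p of 2.97e-06. In the same Kupffer-like cells the hepatocyte markers summed to 29576 to 34203 CPM in control and 45598 to 56802 CPM in HIRA KO areas, with 7 of 11 higher on average, and the endothelial markers to 12735 to 13685 and 11446 to 12672 CPM, with 5 of 15 higher. Neither sum overlapped between genotypes (exact p = 0.1 each), no marker was at 0, the 9 Kupffer markers, Cd163 among them, overlapped at 52105 to 63557 and 48361 to 63340 CPM, and the part of the other markers in the Cd163 difference was not tested. Cd163 was also the target called in monocyte/dendritic-like cells, at -1.18 (edgeR adjusted p = 0.0265). That call remained without HIRA KO area 1 (edgeR adjusted p = 0.0160), was lost without any 1 of the other 5 areas, with edgeR adjusted p up to 0.885, and was lost with library-size scaling (edgeR adjusted p = 0.0524). Mrc1, which with Cd163 is widely used as a marker of alternatively activated macrophages, had the Kupffer-like change of -0.01 given above, and Kupffer-like Mertk differed by -0.49 (edgeR adjusted p = 0.764).

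The other lists gave 0 calls in sinusoidal cells by edgeR or DESeq2, with 4 members in all at an unadjusted edgeR p under 0.05, beside 5 of 998 targets called (0.501%) and 7.41% of targets at that unadjusted p. Of the lymphatic endothelial list only Prox1, Vegfc and Vegfd were measured besides Lyve1. Their median log2 fold change was 0.37, against -0.01 over all 998 targets. Prox1, the transcription factor of lymphatic identity, differed by 0.38 (edgeR adjusted p = 0.617). Prox1 was also among the leading genes of a hepatocyte-like cluster when the minimum count per cell was raised. In hepatocyte-like cells it differed by 0.28 (edgeR adjusted p = 0.572). The part of hepatocyte transcripts in the sinusoidal Prox1 difference was not tested. The 12 measured genes of endothelial capillarization had a median of 0.09, with the capillary sialomucin Cd34 at 0.38 (edgeR adjusted p = 0.617). The 20 genes of endothelial growth factor signalling had a median of -0.05, with Angpt2, the antagonist ligand of the Tie2 receptor, at 0.45 (edgeR adjusted p = 0.540). The 11 genes of alternative macrophage activation had a median of 0.03 in sinusoidal cells, with the interleukin-4 receptor gene Il4ra at -0.37 (edgeR adjusted p = 0.617), and a median of -0.03 in Kupffer-like cells, where its 1 call was Cd163. Among hyaluronan genes only Vcan and Tnfaip6 had counts to test, with sinusoidal log2 fold changes of -0.30 and -0.01, and the hyaluronan receptor gene Cd44 was listed at 0 in every cell.

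**Figure D3:**
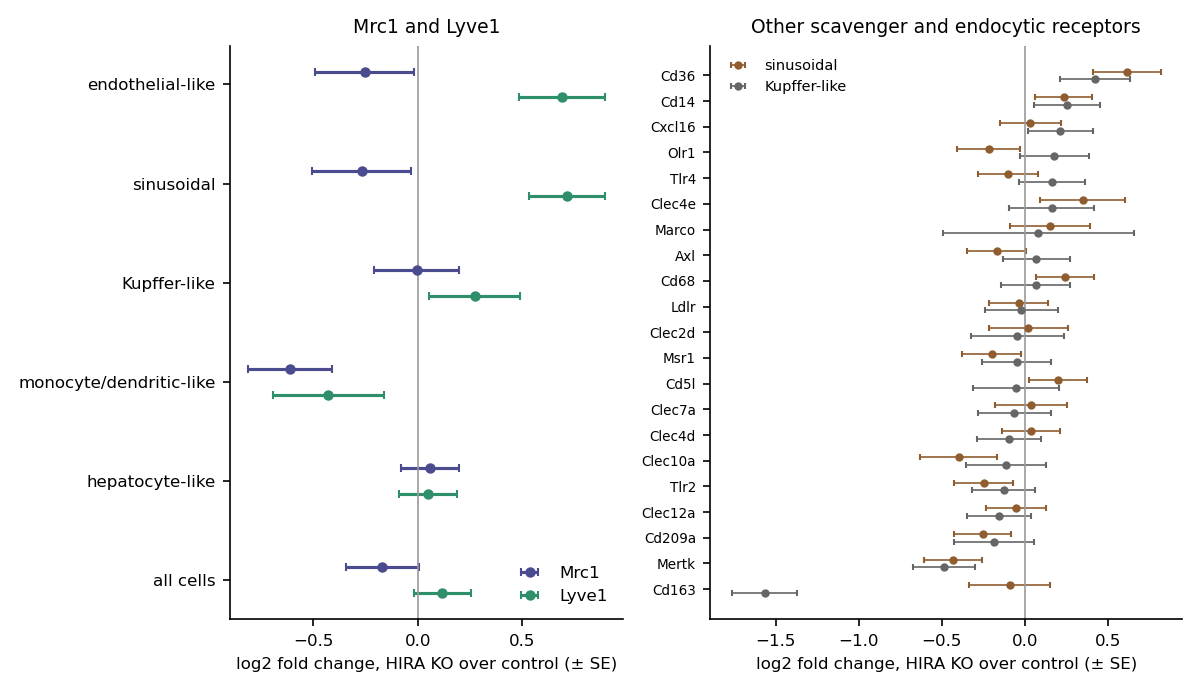
Log2 fold change of HIRA KO over control with its standard error from edgeR, for Mrc1 and Lyve1 by class of cell (left) and for the 21 other scavenger and endocytic receptors in sinusoidal and Kupffer-like cells (right). Lyve1 stands at 0.69 and 0.71 in endothelial-like and sinusoidal cells, Mrc1 at -0.25 and -0.27, and Cd163 at -1.57 in Kupffer-like cells lies apart from the other receptors.

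Shares of cells with a transcript were compared at 50 counts per cell, since deeper cells show more genes. Cells with fewer counts were left out. These were 300, 156 and 321 endothelial-like cells in control areas 1 to 3 and 220, 189 and 149 in HIRA KO areas 1 to 3. At that depth the Mrc1 share of endothelial-like cells was 17.3% ± 1.4 over the control areas and 14.4% ± 3.1 over the HIRA KO areas (SD, n = 3 each, exact permutation p = 0.3). Lyve1 was found in 4.53%, 3.24% and 3.72% of them in the control areas and in 9.17%, 6.28% and 3.53% in the HIRA KO areas (exact p = 0.3). HIRA KO area 3 lay within the control range, as did its Lyve1 CPM in endothelial-like cells as a whole, but not in sinusoidal cells alone. Hepatocyte-like cells, the background, showed Mrc1 in 4.27% and Lyve1 in 3.57% of cells at the same depth, so the Lyve1 share of control endothelial-like cells lay close to background. Without thinning, at median depths of 70 to 100 counts in endothelial-like cells and 105 to 195 in hepatocyte-like cells, the endothelial-like shares were 19.4% to 31.9% for Mrc1 and 5.45% to 15.3% for Lyve1.

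Co-detection asked whether a cell with one receptor tended to carry the other. Both were seen in 20 to 41 endothelial-like cells per area. At 50 counts per cell the log2 odds ratio of both genes in the same cell was 0.12, 0.18 and -0.13 in the control areas and 0.41, 0.24 and 0.09 in the HIRA KO areas. The mean of 0.15 ± 0.18 (SD, n = 6) had an exact sign-flip p of 0.125, with 5 of 6 areas above 0, and the genotypes differed by 0.19 (exact p = 0.3), a difference of -0.17 at 100 counts per cell. Among 747 possible partners of Mrc1 in these cells Lyve1 ranked 77, and the endothelial receptor gene Kdr ranked 8 with a mean log2 odds ratio of 0.36. At this depth no tendency of Mrc1 and Lyve1 to share cells could be told from the spread between areas.

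Lobule position was read from other genes, as the relative distance to pericentral and portal landmarks, and cut into 3 zones of equal width. Pericentral landmarks were rich in Glul, the glutamine synthetase gene of hepatocytes around the central vein, and portal landmarks in biliary genes. Each kind was a fixed 5% of the cells of an area. The median distance to a pericentral landmark was 4263 pixels in control area 2 and 870 to 2122 pixels in the other areas. The paper reports more cholangiocytes, and hepatocytes turning into cholangiocytes, in HIRA KO livers. Whether the scale marks the same lobule positions in every area and both genotypes was not tested. Some genes with known zonation followed this scale in all 6 areas, and other genes read on it did not. Among endothelial-like cells the Notch ligand Dll4 was lower in the pericentral than the periportal zone by 0.70 on the log2(CPM + 10) scale and the arterial ephrin Efnb2 by 0.47, each in 6 of 6 areas (exact sign-flip p = 0.031). Rspo3, the Wnt enhancer of central vein endothelium, was higher by 0.69 in 5 of 6 areas (exact p = 0.125), and hepatocyte-like Arg1, a periportal urea cycle gene, was lower by 0.50 in 6 of 6 areas (exact p = 0.031). In endothelial-like cells Kit differed by 0.27, pericentral minus periportal, with 3 of 6 areas above 0 (exact p = 0.25). Lgr5 differed by 0.28 (exact p = 0.40625), Vwf by 0.31 (exact p = 0.34375) and Pigr by -0.05 (exact p = 0.65625). In sinusoidal cells alone Dll4 differed by -0.63 (exact p = 0.0625) and Efnb2 by -0.33 (exact p = 0.09375).

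On the same scale neither Mrc1 nor Lyve1 showed a difference across the lobule beyond the spread between areas. Endothelial-like Mrc1 averaged 3480, 3589 and 3397 CPM in the pericentral, middle and periportal zones, a pericentral minus periportal difference of 0.04 ± 0.14 (SD, n = 6, exact sign-flip p = 0.5625). Lyve1 averaged 1068, 1082 and 1064 CPM, a difference of 0.01 ± 0.31 (exact p = 0.96875). Area values ran from -0.07 to 0.26 for Mrc1 and from -0.53 to 0.28 for Lyve1. The steepest Lyve1 area, at -0.53, was steeper than the mean Efnb2 difference of -0.47 and less steep than the mean Dll4 difference of -0.70. No area showed an Mrc1 gradient as steep as either mean. The reference genes themselves varied widely, with area values from -1.14 to -0.08 for Efnb2 and from -2.14 to -0.20 for Dll4. The gradients differed between genotypes by 0.19 for Mrc1 (exact p = 0.1) and by -0.15 for Lyve1 (exact p = 0.6), HIRA KO minus control, and both turned in sign with landmarks of 2% of cells, to -0.32 for Mrc1 and 0.030 for Lyve1. With both landmarks in the cell's own field of view the Lyve1 value was 0.15. The higher Lyve1 of HIRA KO area 1 was present at 2013, 1681 and 1843 CPM in the 3 zones, and that of HIRA KO area 2 at 985, 1682 and 1426 CPM. Only the pericentral zone of HIRA KO area 2 fell inside the range of the control areas, 535 to 1057 CPM over all their zones.

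**Figure D4:**
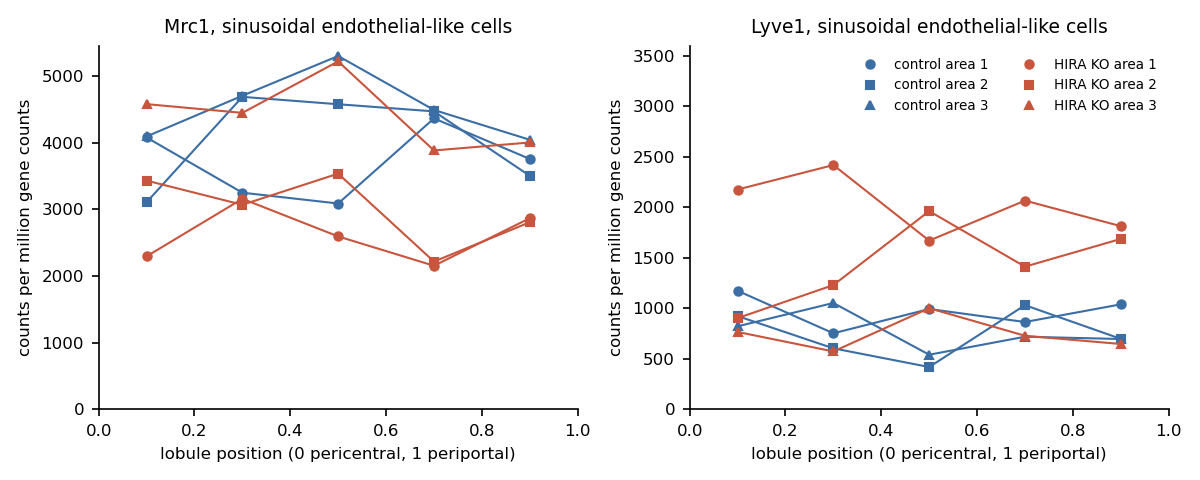
Mrc1 (left) and Lyve1 (right) in sinusoidal endothelial-like cells against lobule position from 0 at pericentral to 1 at portal landmarks, in CPM, with 1 line per tissue area over equal steps of the scale. Single lines are not all level, and Lyve1 in HIRA KO area 2 goes from 900 CPM at the pericentral end to 1960 CPM in the middle. Averaged over areas, all endothelial-like cells by zone are at 3480, 3589 and 3397 CPM for Mrc1 and 1068, 1082 and 1064 CPM for Lyve1.

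Single transcripts gave a view that did not depend on cell outlines. Within 50 pixels of an Mrc1 transcript, other Mrc1 transcripts were 3.02 times as frequent as in the area as a whole, as a mean of 6 areas. The next most enriched targets were Cd5l at 2.21, Kdr at 1.94, C1qb at 1.89, C1qa at 1.87, Eng at 1.83 and Cd55 at 1.79. Cd5l and the C1q subunit genes are Kupffer cell genes, and Kdr and Eng are growth factor receptor genes of endothelium, so Mrc1 transcripts lay among both cell types. Around Lyve1 transcripts Lyve1 itself was enriched 3.09 times and the next targets only slightly, led by the tyrosine kinase gene Fes at 1.33 and the apoptosis gene Bax at 1.28. Kdr stood at 1.13 there, and the Kupffer genes Marco and C1qb at 0.87 and 0.85.

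Around Mrc1 transcripts Lyve1 transcripts were about as frequent as elsewhere. Their share near Mrc1 was 0.96, 0.86 and 0.99 times their overall share in the control areas and 1.18, 1.40 and 0.88 times in the HIRA KO areas. HIRA KO areas 1 and 2 were again above all control areas and HIRA KO area 3 was not, and the group means were 0.94 and 1.15 (exact permutation p = 0.3). Over the 6 areas the mean was 1.05 ± 0.21 (SD), rank 221 of 748 targets. Distance in a flat section cannot separate a sinusoidal cell from a Kupffer cell pressed against it.

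**Figure D5:**
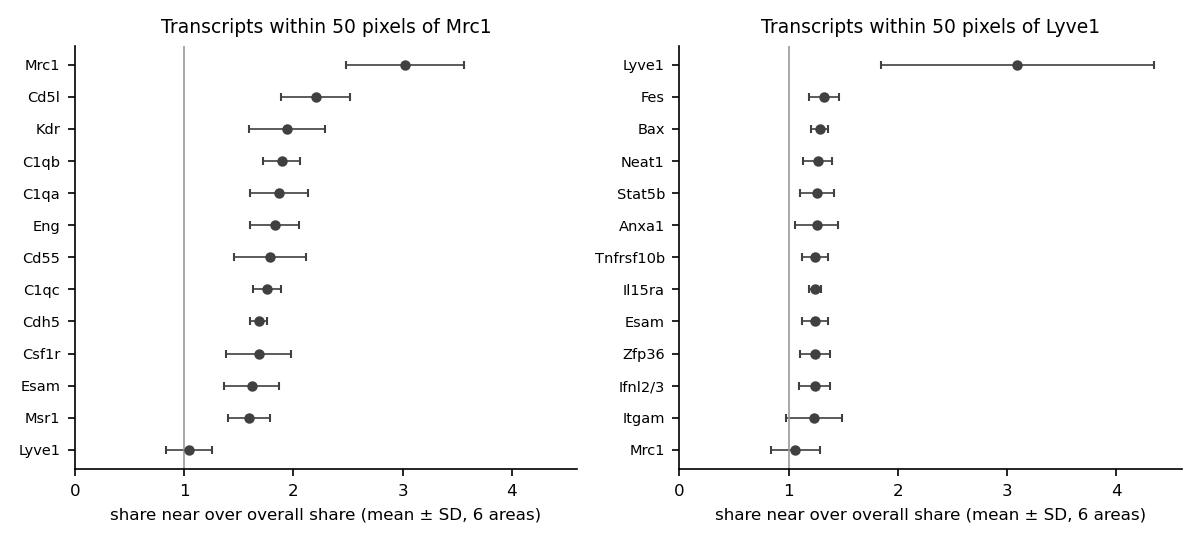
Share of each target among transcripts within 50 pixels of Mrc1 (left) or Lyve1 (right), divided by its share in the whole area, as the mean and SD of 6 tissue areas for the highest ranked targets and the partner gene. Around Mrc1 the enriched targets are endothelial and Kupffer genes, from Cd5l at 2.21 down, while around Lyve1 only Lyve1 itself, at 3.09, stands far above 1.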

How the data were processed

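Sections of the median lobe were probed with a CosMx mouse panel, and imaging, decoding and segmentation were done for the authors by the instrument's maker, with versions not given in the sources used here. The deposited cell table holds raw counts per cell and target. The deposited metadata hold stain intensity values, of which CD45 intensity was used, and the deposited transcript table holds positions in pixels. Cells under 20 counts or over 5 times the geometric mean area were left out (2215 and 252 cells), after the authors' filter. Pearson residuals without Mrc1 and Lyve1 were clustered (leidenalg 0.10.2, igraph 0.11.9, scikit-learn 1.9.0, resolution 1.6), and a cluster was named from at least 3 raised markers. No doublet caller was run. Counts summed per area and class were tested with edgeR 4.0.16 in R 4.3.3 (TMM, filterByExpr, robust quasi-likelihood, Benjamini-Hochberg adjusted p under 0.05), checked on simulated data. Single values were tested with exact two-sided permutation tests (SciPy 1.17.1). Alternatives were DESeq2 1.42.0, other scaling, filters, minimum count, clustering, marker-cut classes, slide row as a block, the offset, depth and landmarks, and each area left out in turn. Cd44 and Cd3e were at 0 in every cell and untested. Named genes were Mrc1, Lyve1, those with the lowest p in a list (up to 3 per direction, of which the leading ones are described), the 5 most like each in pattern, and genes that define a class. Members, lists and tests were chosen with earlier results of these data known.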

Additional observations from a re-analysis of the deposited data

How the results depend on the processing

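Counting error, 3 areas a group and negative probe background limit Lyve1. Of 277 recomputed values 229 kept their direction and side of the threshold (counts of calls within 1.5 times), 16 reversed, 8 lost and 5 gained a call, and 19 counts of calls moved further. For endothelial-like Lyve1 the log2 fold change passed with library-size scaling (0.66), slide row as a block (0.67), Mrc1 and Lyve1 in the clustering (0.77) and resolution 0.8 (0.69). For sinusoidal Lyve1 the call was lost with DESeq2 (0.72), a minimum of 50 counts (0.63), marker-cut classes (0.57) and endothelial markers as the library (0.82). Kupffer-like Mrc1 turned to 0.043 with both genes clustered. Endothelial over Kupffer-like Mrc1 was -0.22 as counts per cell, 0.13 with marker-cut classes and 0.45 with the negative probe subtracted (chosen after seeing the data); Lyve1 was 0.12 as counts per cell. Co-detection between genotypes was -0.17 at 100 counts. The Mrc1 lobule difference turned to -0.047 with landmarks of 10% and -0.056 with marker-cut classes, and that of Lyve1 to -0.12 with landmarks of 2%, -0.0034 per endothelial marker, -0.0021 at 50 counts, -0.18 with marker-cut classes and -0.072 with both genes clustered. The genotype difference of the lobule difference turned to -0.32 for Mrc1 and 0.030 for Lyve1 with landmarks of 2%, and to 0.15 for Lyve1 with both landmarks in the field of view (added later). With a minimum of 50 counts Kupffer-like Lyve1 was -0.016, and with library-size scaling hepatocyte-like Mrc1 was -0.057 and Lyve1 -0.060. The cause was not tested.

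Targets called in endothelial-like cells numbered 3 with library-size scaling, 7 with slide row, 1 each with DESeq2, 50 counts, both genes clustered and resolution 0.8, and 2 with endothelial markers as the library. In sinusoidal cells they numbered 3, 11, 2 and 1 under the first 4 of these, 2 with both genes clustered, 1 at resolution 0.8, 2 with the endothelial library and 0 with marker-cut classes. Kupffer-like calls fell to 1 at 50 counts and 1 with marker-cut classes, and calls over all cells rose to 51 with slide row and 10 with DESeq2. No large-vessel cluster formed at resolution 0.8 or at 50 counts, so sinusoidal over large-vessel has no value there.

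Leaving out each area in turn gave Mrc1 log2 fold changes of -0.56 to -0.09 in endothelial-like, -0.54 to -0.10 in sinusoidal, -0.14 to 0.093 in Kupffer-like cells and -0.36 to -0.03 over all cells. Lyve1 ran from 0.42 to 0.94, 0.41 to 1.02, 0.11 to 0.38 and 0.03 to 0.25 in the same order. Class differences were 0.37 to 0.49 (Mrc1) and 0.63 to 0.81 (Lyve1) for endothelial over Kupffer-like and 1.18 to 1.33 and 0.24 to 0.65 for sinusoidal over large-vessel cells, at exact p of 0.0625 or more, the smallest 5 areas allow. Share differences were -4.69 to -1.90 and 1.07 to 3.90 percentage points, co-detection 0.10 to 0.27 between genotypes and 0.10 to 0.21 in all, lobule differences -0.0048 to 0.061 and -0.042 to 0.12, and their genotype differences 0.13 to 0.27 and -0.29 to 0.086. Hepatocyte-like Mrc1 ran from -0.11 to 0.16 and Lyve1 from -0.083 to 0.17. Calls were 0 to 1 in endothelial-like, 0 to 3 in sinusoidal and 1 to 5 in Kupffer-like cells (1 without control area 1, 2 without control area 3 or HIRA KO area 3), and 1 to 3 over all cells (1 without control area 2 or HIRA KO area 2).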

Other observations

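Within cells, 18.2% of Mrc1 transcripts were assigned to the membrane compartment against 15.8% of all transcripts, a difference of 2.38 percentage points that was above 0 in 6 of 6 areas (exact sign-flip p = 0.031, 1 of 8 such comparisons of Mrc1 and Lyve1, unadjusted). Lyve1 transcripts were nuclear in 50.6% against 48.1% of all transcripts, higher in 5 of 6 areas (exact p = 0.0625). Outside any cell lay 5.51% of Mrc1, 6.89% of Lyve1 and 6.84% of all transcripts.

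Sinusoidal cells nearer to a Kupffer-like cell held 3784 CPM of Mrc1 and those farther away 3631 CPM, a difference of 0.06 ± 0.23 on the log2(CPM + 10) scale (SD, n = 6, exact sign-flip p = 0.59375). Lyve1 stood at 1143 and 1108 CPM, a difference of 0.03 (exact p = 0.78125). The CD45 stain, a protein mark of blood-derived cells, had a median intensity in sinusoidal cells with Mrc1 of 1.04 times that in sinusoidal cells without it (median of 6 areas, above 1 in 4), and in Kupffer-like cells of 1.10 times (above 1 in 5). In monocyte/dendritic-like cells with Mrc1 it was 0.92 times (above 1 in 2). For Lyve1 it was 1.09 times in sinusoidal cells (above 1 in 5) and 0.89 times in Kupffer-like cells (above 1 in 2).

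Hepatocyte-like cells showed the 1 lobule difference of these genes that had the same sign in all 6 areas. Their Lyve1 was lower in the pericentral zone by 0.21 ± 0.19 on the log2(CPM + 10) scale (SD, n = 6, exact sign-flip p = 0.031, unadjusted), with mean levels of 696 CPM pericentrally and 815 CPM periportally, while hepatocyte-like Mrc1 differed by -0.01 (exact p = 0.96875). Which cells these Lyve1 transcripts belong to was not tested.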
